A study of Rattus norvegicus with 12 samples.

Results

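The 10 genes described here encode proteins carried on synaptic vesicles or recruited to them: the vesicular glutamate transporters Slc17a7 and Slc17a6, the synaptophysin family members Syp and Synpr, the synapsins Syn1 and Syn2, the SV2 proteins Sv2a and Sv2b, the GTPase Rab3a and the endocytic adaptor Snap91. They were chosen by name, with earlier results of these data known. Every probe set that the platform annotation assigns to 1 of these symbols and no other was taken, which gave 17 of the 15866 probe sets on the array other than controls. Of these, 15 had a mean log2 level of at least 4 over all arrays and entered the test, so that every gene had at least 1 tested probe set. The remaining 2, for Sv2b and Snap91, were dim.

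RNA came from the CA1 field of the hippocampus, microdissected from 12 male Long-Evans rats aged 3 to 4 months, with 1 Affymetrix RAE230A array per rat. Every rat had learned a standard water maze 2 to 3 weeks before, then swam a single session of 8 trials spaced 8 minutes apart in an unfamiliar maze, and was killed right after a probe trial of 90 seconds given 1 hour later. For the 6 rats of the spatial learning group (called learning activated in the sample titles) the visible platform kept its place among orienting cues; for the 6 of the control task group it was moved between trials and informative cues were missing. Both groups therefore shared the earlier training, the swimming and the probe trial, and the contrast asks what differs when a place can be learned. No untrained rats are among these arrays.

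Glutamate is loaded into synaptic vesicles by vesicular transporters that use the proton gradient of the vesicle. Slc17a7 encodes VGLUT1, the main form in hippocampal and cortical pyramidal cells, and Slc17a6 encodes VGLUT2, which is most abundant in thalamus and other subcortical regions. Synaptophysin and synaptoporin are tetraspanning membrane proteins, of which synaptoporin is enriched in the mossy fibres of dentate granule cells and in some interneurons. Synapsins tether vesicles in the reserve pool, SV2 proteins support priming and bind the antiepileptic levetiracetam (SV2A), Rab3a couples vesicles to the active zone, and AP180, the product of Snap91, helps clathrin to retrieve vesicle membrane. These are proteins of the terminal, whereas the arrays measured RNA in the dissected field, most of it from cell bodies.

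The promoters of the transporter pair that the comparison turns on are shown with that of Syn1, the only one of the 9 members with a window in which a full cAMP response element was found. The windows hold 250 bases before and 50 after the start site that the RefSeq-derived promoter table uses for the gene, on GRCr8, written in the direction of the gene. For 6 of the 9 that site is the outer end of the RefSeq gene; for Slc17a7 it lies 33 bases, for Sv2b 377 bases and for Synpr 148451 bases inside the gene. Capitals mark matches, on either strand, to the cAMP response element TGACGTCA, to its core TGACG, to the GC box motif GGGCGG or to the Egr site motif GCGGGGGCG, where a core can lie inside a full element and a GC box can overlap an Egr site. Slc17a6 lies at chr1:110348197-110348496 on the plus strand, Slc17a7 at chr1:104785955-104786254 on the plus strand and Syn1 at chrX:3725495-3725794 on the plus strand.
Slc17a6: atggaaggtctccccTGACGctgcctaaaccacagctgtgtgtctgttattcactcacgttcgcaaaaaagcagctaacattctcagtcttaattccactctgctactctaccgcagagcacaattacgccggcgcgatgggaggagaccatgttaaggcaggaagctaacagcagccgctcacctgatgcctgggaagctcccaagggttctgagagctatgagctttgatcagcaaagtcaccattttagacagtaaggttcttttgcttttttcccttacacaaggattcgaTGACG
Slc17a7: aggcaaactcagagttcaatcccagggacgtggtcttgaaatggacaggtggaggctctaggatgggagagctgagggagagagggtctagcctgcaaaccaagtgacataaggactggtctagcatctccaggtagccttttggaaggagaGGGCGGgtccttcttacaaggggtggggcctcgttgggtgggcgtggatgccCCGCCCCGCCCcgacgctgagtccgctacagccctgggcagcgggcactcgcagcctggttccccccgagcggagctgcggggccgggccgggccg
Syn1: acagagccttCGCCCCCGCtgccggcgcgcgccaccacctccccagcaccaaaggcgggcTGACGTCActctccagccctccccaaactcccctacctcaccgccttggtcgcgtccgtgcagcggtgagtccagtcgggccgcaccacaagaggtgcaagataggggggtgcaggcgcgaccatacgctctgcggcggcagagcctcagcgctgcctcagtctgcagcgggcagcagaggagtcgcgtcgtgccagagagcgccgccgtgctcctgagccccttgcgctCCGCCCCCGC
The Slc17a6 window held 2 matches to the core TGACG and none to the others, with a GC content of 49.0%. In the Slc17a7 window, 64.7% GC, there were 3 GC box matches, 2 of them overlapping, and no others. Syn1, at 71.0% GC, held TGACGTCA from position 61 of the window, 2 Egr site matches and 1 GC box match.

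A promoter window was found for 9 of the 10 members. TGACGTCA was in 1 of the 9, against 1.83% of all 33469 windows of the same length in that table, TGACG in 3 (21.2%), GGGCGG in 5 (33.1%) and GCGGGGGCG in 3 (Syp, Syn1 and Syn2; 2.73%). The windows of Synpr, Sv2a and Sv2b held none of the 4. These matches describe the letters of the windows and say nothing about binding.

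The dissection and the arrays set limits on what follows. All 8 tested CA1 markers were well measured, with a list mean of 10.14 ± 0.11 on control task arrays and 10.32 ± 0.13 on spatial learning arrays (log2 with SD, n = 6 each), and 8 of the 8 were higher after spatial learning. Dentate gyrus markers were also detected, at 8.15 ± 0.17 and 7.91 ± 0.10, with 6 of 7 lower, and CA3 markers at 8.38 ± 0.08 and 8.36 ± 0.08, with 3 of 6 lower. The dentate list ran from Calb1, at a mean of 10.96, down to Prox1 at 5.74 and Trpc6 at 4.44. How specific these markers are to the dentate gyrus was not tested. Some lists share a gene: Dcn is in the CA1 and the meningeal list, and Prkcd in the CA3 and the neighbouring region list. A list of 14 general neuronal genes stood at 11.42 ± 0.08 and 11.42 ± 0.05, with 9 of 14 lower (median -0.04) and Camk2a higher by 0.59. Glial lists leaned the same way, with 10 of 13 astrocyte markers lower (median -0.04), 9 of 11 oligodendrocyte markers (-0.11) and 8 of 9 microglia markers (-0.06); 0 genes of any of these lists passed with limma, and their part in the members' values was not tested. Control task replicates 3 and 6 and spatial learning replicate 6 stood apart: the choroid plexus list mean was 9.49 on the first of these against at most 7.39 on the other 11 arrays, and the meningeal list mean was 8.02 and 7.85 on the others against at most 7.08 elsewhere. The choroid plexus list also differed beyond these arrays: control task replicates 1, 2, 3 and 6 lay above the highest spatial learning array, at 6.05, with group means of 7.08 ± 1.31 and 5.89 ± 0.14, and 6.40 ± 0.51 (n = 4) and 5.86 ± 0.13 (n = 5) without the 3 arrays. Leaving them out therefore does not remove that gap. Only 3 choroid plexus genes were tested, 2 of them lower and 1 higher. With all arrays kept, their differences were -3.33 for Ttr, -0.41 for Enpp2 and 0.18 for Kcne2. The gap in the list mean over all arrays thus rests mainly on Ttr, and the genes do not all go the same way. The 3′ minus 5′ signal gap of the hexokinase control, a measure of RNA integrity, ran from 1.35 to 1.55 on control task arrays and from 1.55 to 1.82 on spatial learning arrays (exact permutation p = 0.00433). The groups hardly overlap in this gap, so fits with it as a covariate cannot tell its part from that of the task. In tissue RNA, fewer cells of a type and less RNA per cell cannot be told apart. Brightness of different probe sets depends on their probes, so levels are not compared between genes.

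After spatial learning the vesicle genes lay lower as a group of values, led by Slc17a6 and Synpr, but none passed the test. Of the 15 tested probe sets 14 had a negative difference (spatial learning minus control task, log2), where 46.3% of all 9610 tested probe sets did. The median was -0.13 over the 15 and 0.01 over all tested probe sets. At an adjusted p of 0.05 (limma, Benjamini-Hochberg over all tested probe sets) 0 members passed and 0% of all probe sets did, with the members' adjusted p running from 0.388 to 0.995. An unadjusted p under 0.05 in the lower direction was reached by 7 of the 15, against 4.55% of all tested probe sets, and by 0 in the higher direction. An exact rank-sum test could not pass: its smallest p at this size, 0.00216, needs 417 probe sets with separated groups to survive the adjustment, and 61 had them. The probe sets share arrays and several share a gene, so these counts are not independent tests. The members were also chosen with earlier results of these data known, so the shares describe this list and test nothing.

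**Figure D1:**
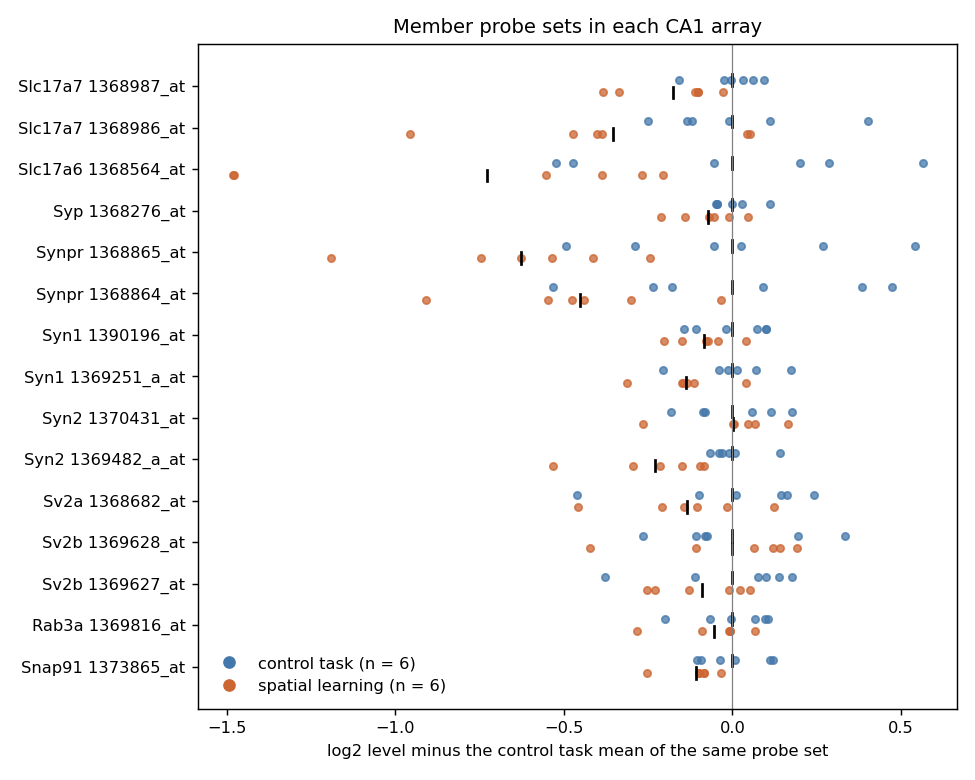
Each point is 1 array's log2 level of a tested probe set minus the control task mean of that probe set, with a black bar at each group's mean (6 control task arrays in blue, 6 spatial learning arrays in orange). Only for Syn2 1369482_a_at do all orange points lie left of all blue points; Slc17a6 and Synpr spread most widely.

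**Figure D2:**
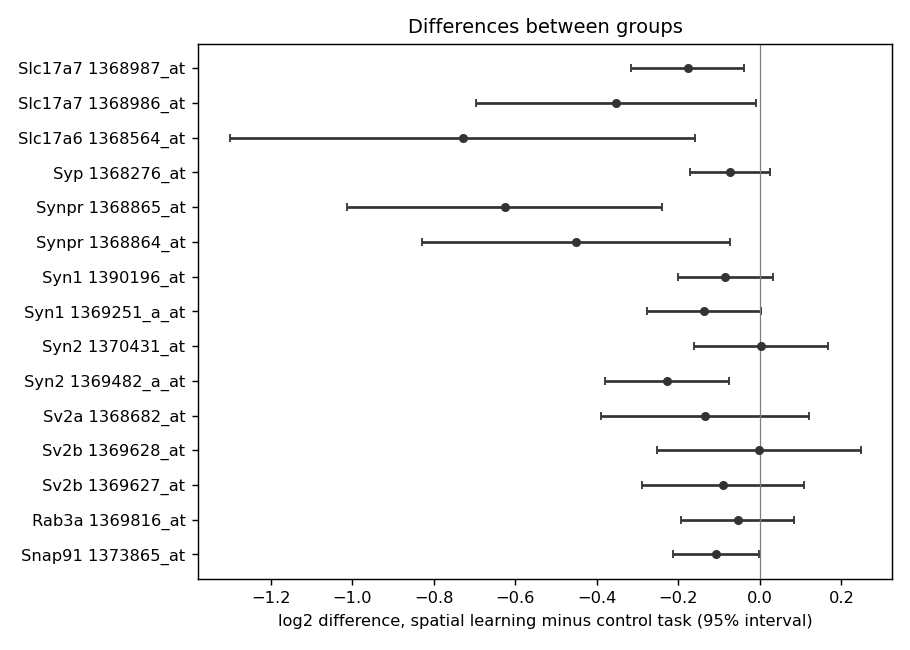
Points are log2 differences, spatial learning minus control task, for the 15 tested probe sets, and bars are 95% intervals from limma's moderated SE. The points run from -0.73 for Slc17a6 to 0.00 for Syn2 1370431_at, and 0 differences passed after adjustment over all probe sets.

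Slc17a6 had the widest gap of the members. Its probe set 1368564_at ran from 6.73 through a median of 7.32 to 7.82 on control task arrays and from 5.77 through 6.78 to 7.04 on spatial learning arrays (log2). Spatial learning replicates 1 and 3 were the low ones, both at 5.77, while the other 4 lay between 6.70 and 7.04 and overlapped the 2 lowest controls, at 6.73 and 6.78. The means were 7.25 ± 0.43 and 6.52 ± 0.59 (SD, n = 6 each), a difference of -0.73 (SE 0.26, 95% interval -1.30 to -0.16, limma adjusted p = 0.426). On the linear scale this is a ratio of 0.603.

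The difference of Slc17a7 was smaller and its arrays tighter. Probe set 1368987_at ran from 12.29 through 12.46 to 12.55 on control task arrays and from 12.07 through 12.34 to 12.42 on spatial learning arrays. All but 1 of the controls lay above the highest spatial learning array, the exception being control task replicate 1 at 12.29, and the lowest values were those of spatial learning replicates 6 and 1, at 12.07 and 12.11. Its means of 12.45 ± 0.09 and 12.27 ± 0.15 differed by -0.18 (SE 0.06, limma adjusted p = 0.425), a linear ratio of 0.884. The dimmer probe set 1368986_at had means of 10.43 ± 0.23 and 10.07 ± 0.37, a difference of -0.35 (SE 0.16, limma adjusted p = 0.447). Its lowest array was spatial learning replicate 6 again, at 9.47, without which the difference was -0.23. With the hexokinase gap as a covariate the 2 differences were -0.10 and 0.015, so that the dimmer one changed sign. That of Slc17a6 was -0.99 in the same fit. Because the gap hardly overlaps between the groups, this fit cannot tell RNA integrity from the task. The part of RNA integrity in these differences was not tested further.

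Whether the 2 transporters differed unequally was tested on 1 value per array, Slc17a6 minus Slc17a7. This log2 ratio ran from -5.73 to -4.61 in the control task group, with a mean of -5.20 ± 0.47, and from -6.58 to -5.20 on spatial learning arrays, with a mean of -5.75 ± 0.57 (SD, n = 6 each). Spatial learning replicates 3 and 1, at -6.58 and -6.35, lay below every control, and the other 4 lay within the control range. The groups differed by -0.55 (2-sided exact permutation p = 0.106), which does not pass; with the hexokinase gap as a covariate the difference was -0.89 (permutation p = 0.0634). Across the 12 arrays with group means removed, the 2 genes had a Pearson r of 0.06 (permutation p = 0.867) and a Spearman rho of -0.01 (permutation p = 0.992), -0.35 within the control task group and 0.25 within the spatial learning group for r. Without the 2 arrays farthest from the median of Slc17a7, r was 0.41. No relation between the transporters was detected.

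In the synaptophysin family both Synpr probe sets had lower means after spatial learning, with overlapping groups. On 1368865_at the control task arrays ran from 8.86 through 9.33 to 9.89 and the spatial learning arrays from 8.16 through 8.77 to 9.10. The low array was spatial learning replicate 3, 4 controls lay above every spatial learning array, and control task replicates 5 and 6, at 8.86 and 9.06, fell among them. Means of 9.35 ± 0.37 and 8.72 ± 0.33 gave a difference of -0.63 (SE 0.18, 95% interval -1.01 to -0.24, limma adjusted p = 0.388), a linear ratio of 0.648. It ranked 95 of 9610 by p. The dimmer 1368864_at, at 8.47 ± 0.39 and 8.02 ± 0.29, gave -0.45 (SE 0.18, limma adjusted p = 0.429). Leaving out the 3 arrays with choroid plexus or meningeal transcripts, the differences were -0.77 and -0.57. Syp, the general vesicle marker, stood at 11.12 ± 0.06 and 11.05 ± 0.09, a difference of -0.07 (SE 0.05, 95% interval -0.17 to 0.03). Its controls ran from 11.08 to 11.24, and 4 of the 6 spatial learning arrays lay below the lowest of them.

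Among the synapsins the values differed by probe set. Syn2 1369482_a_at was the only member probe set whose groups did not overlap, which held in the lower direction for 0.271% of all tested probe sets. It ran from 9.64 through 9.69 to 9.85 on control task arrays and from 9.18 through 9.52 to 9.62 on spatial learning arrays. Spatial learning replicate 2 was the lowest array, at 9.18, and control task replicate 4 the highest, at 9.85, while only a narrow gap parted spatial learning replicate 3 from control task replicate 6. Its difference was -0.23 (SE 0.07, 95% interval -0.38 to -0.08, limma adjusted p = 0.388), and -0.14 with the hexokinase gap as a covariate. The other Syn2 probe set, 1370431_at, of like brightness, had means of 9.65 ± 0.14 and 9.65 ± 0.14 and a difference of 0.00 (SE 0.08, 95% interval -0.16 to 0.17). Syn1 differed by -0.08 (SE 0.05) on 1390196_at, at 11.06 ± 0.11 and 10.98 ± 0.08, and by -0.14 (SE 0.06) on 1369251_a_at, at 10.43 ± 0.13 and 10.30 ± 0.11. On both Syn1 probe sets spatial learning replicate 3 was the lowest array and the groups overlapped. Without the 3 arrays named above the value of 1369251_a_at was -0.22 (limma adjusted p = 0.193).

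The SV2 genes showed overlapping groups. Sv2a stood at 9.20 ± 0.26 and 9.07 ± 0.20, a difference of -0.13 (SE 0.12, 95% interval -0.39 to 0.12), and each group had 1 low array at 8.74, control task replicate 2 and spatial learning replicate 3. It was -0.23 without the first and -0.07 without the second of these, -0.09 without control task replicate 3, and -0.02 without the 3 arrays named above. Sv2b gave 12.00 ± 0.22 and 12.00 ± 0.23 on 1369628_at (SE of the difference 0.12, 95% interval -0.25 to 0.25) and 10.35 ± 0.21 and 10.26 ± 0.13 on 1369627_at, a difference of -0.09 (SE 0.09). On 1369628_at spatial learning replicate 6 was lowest at 11.58 and control task replicate 3 highest at 12.33, both among the 3 arrays, and without these 3 the difference was 0.21. The third Sv2b probe set, 1375142_at, lay between 2.68 and 2.78 on every array and was not tested.

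Rab3a, the GTPase, stood at 11.08 ± 0.12 and 11.02 ± 0.12, a difference of -0.05 (SE 0.06, 95% interval -0.19 to 0.08). Each group had 1 array below the others, control task replicate 6 at 10.88 and spatial learning replicate 3 at 10.79, and the difference was -0.095 without the first and -0.0095 without the second. Snap91 1373865_at stood at 11.81 ± 0.10 and 11.70 ± 0.08, a difference of -0.11 (SE 0.05, 95% interval -0.21 to -0.0034, limma adjusted p = 0.447). Its spatial learning arrays lay close together from 11.71 to 11.78 except for replicate 1 at 11.55, and 3 controls lay above them all. The other Snap91 probe set, 1369710_a_at, was between 2.14 and 2.17 on all 12 arrays. A p that misses the threshold does not show equal levels, and the intervals give the sizes still possible.

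Probe sets of the same gene should follow each other from array to array if both read the same transcripts. With group means removed, those of Synpr did, with a Pearson r of 0.94 (permutation p = 5e-05, adjusted over 5 genes 0.00025), a Spearman rho of 0.92 (permutation p = 0.00020) and an r of 0.92 without the 2 arrays farthest from the median. The r was 0.69 for Slc17a7 (permutation p = 0.0277, adjusted 0.0588; rho 0.50, permutation p = 0.114) and 0.37 without its 2 farthest arrays, so that it rests on them. For Syn1 it was 0.64 (permutation p = 0.0353, adjusted 0.0588; rho 0.62, permutation p = 0.0488) and 0.56 without 2 arrays. Syn2, at 0.48 (permutation p = 0.142; rho 0.31, permutation p = 0.324), turned to -0.23 without 2 arrays, and Sv2b stood at 0.25 (permutation p = 0.459; rho 0.10, permutation p = 0.767; 0.27 without 2 arrays). Within groups the Syn2 pair had an r of -0.12 among controls and 0.78 after spatial learning.

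**Figure D3:**
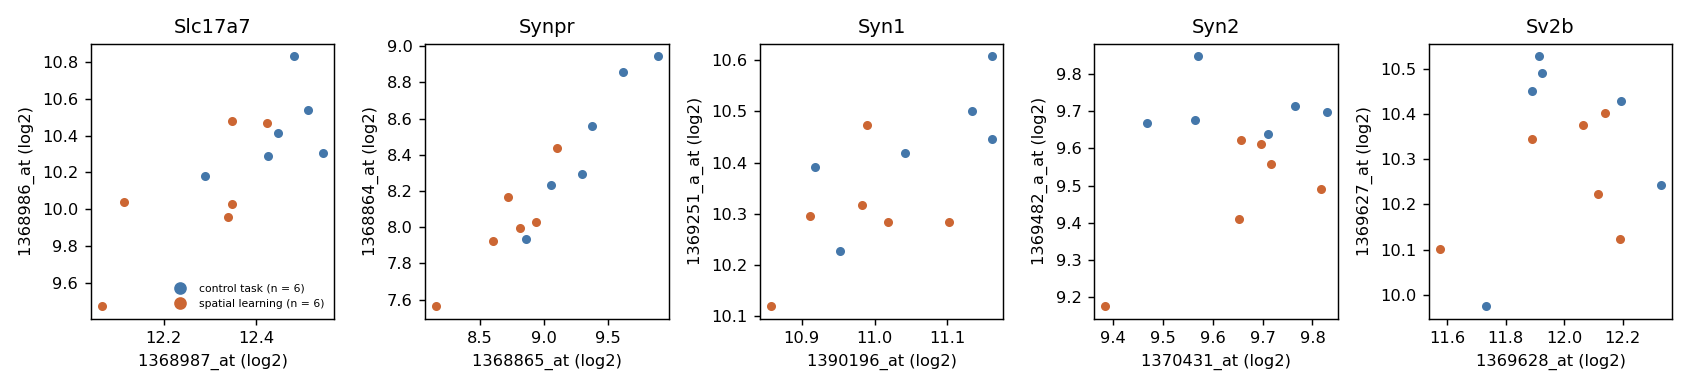
Each panel plots the brighter probe set of a gene (x axis, log2) against its dimmer one (y axis, log2) on the 12 arrays, blue for control task and orange for spatial learning (n = 6 each). The Synpr points follow a line (r 0.94 with group means removed), whereas those of Syn2 and Sv2b scatter, and in the Syn2 panel the groups separate on the y axis only.

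Whether probe sets of a gene differed in their group difference was tested on the brighter minus the dimmer value of each array. For Syn2 this value was -0.06 ± 0.16 on control task arrays and 0.18 ± 0.11 on spatial learning arrays (n = 6 each), a difference of 0.23 (exact permutation p = 0.0195, adjusted over 5 genes 0.0703). For Synpr the values were 0.88 ± 0.09 and 0.70 ± 0.13, a difference of -0.18 (exact permutation p = 0.0281, adjusted 0.0703). Those of Slc17a7 at 0.18, Syn1 at 0.05 and Sv2b at 0.09 had exact permutation p of 0.240, 0.353 and 0.530. None passed after adjustment. The suffix _a_at on 1369482_a_at and 1369251_a_at marks a probe set that the manufacturer designed to match several transcripts of 1 gene.

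Covariation of the members from rat to rat was weak. Over the 45 pairs of the 10 genes, each by its brightest probe set, r with group means removed ran from -0.49 to 0.67 with a median of 0.12, and 29 were positive. After adjustment over the 45 pairs 0 passed, with a smallest adjusted permutation p of 0.666, and 2 had an unadjusted p under 0.05. The closest pair by r was Slc17a6 and Snap91, with r 0.67 (permutation p = 0.0154), rho 0.61 (permutation p = 0.0380), 0.71 within the control task group, 0.70 within the spatial learning group and 0.68 without the 2 farthest arrays. Next came Syn1 and Rab3a, r 0.63 (permutation p = 0.0378; rho 0.57, permutation p = 0.0749; 0.59 without 2 arrays). By rho the closest was Syp and Rab3a (rho 0.67, permutation p = 0.0239, adjusted 0.855; r 0.59, permutation p = 0.0592; 0.71 without 2 arrays). Among the paralogue pairs r was 0.15 for Syp and Synpr, 0.12 for Syn1 and Syn2 and 0.29 for Sv2a and Sv2b, with permutation p of 0.638, 0.724 and 0.384 and rho of 0.22, 0.09 and 0.36 (permutation p of 0.515, 0.795 and 0.280).

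**Figure D4:**
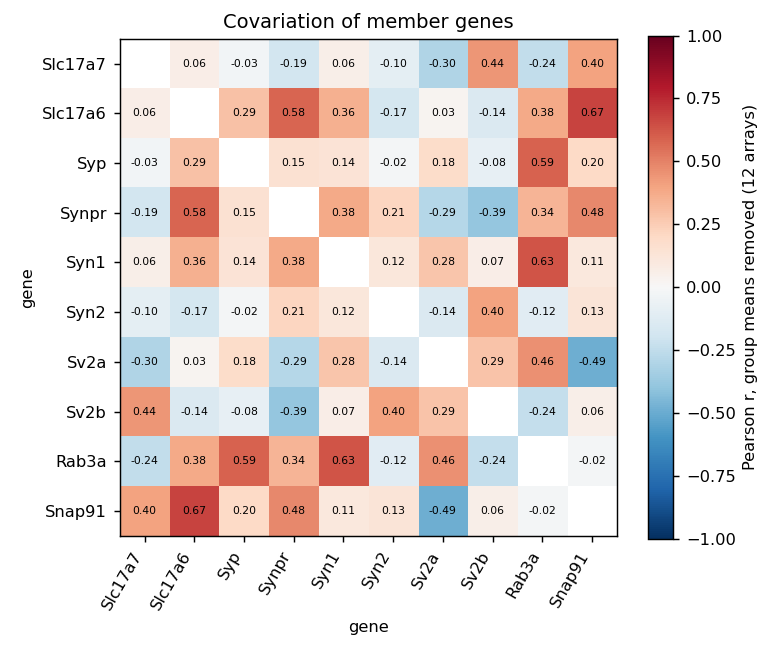
The grid shows Pearson r between the brightest probe sets of the 10 genes over 12 arrays after each group's mean was removed, red for positive and blue for negative. Values run from -0.49 (Sv2a and Snap91) to 0.67 (Slc17a6 and Snap91), and 0 of the 45 pairs passed after adjustment.

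By rank, Slc17a6 varied from rat to rat with the markers of the dentate gyrus, the field next to CA1, while Pearson r did not pass after adjustment. The relation was examined after the data were seen. The dentate list mean per array (Calb1, Pcp4, Jun, Stxbp6, Sema5a, Prox1 and Trpc6) ran from 7.93 to 8.34 on control task arrays and from 7.82 to 8.05 on spatial learning arrays, and spatial learning replicates 1 and 3, low in Slc17a6, were also the lowest here, at 7.82 each. With group means removed, r was 0.79 (permutation p = 0.00355) and rho 0.83 (permutation p = 0.00020), with an r of 0.94 within the control task group and 0.75 within the spatial learning group. It was 0.76 without the 2 arrays farthest from the median of the dentate list, which were not spatial learning replicates 1 and 3. Leaving out replicate 1 or replicate 3 of that group singly gave 0.80 each, and leaving out both was not tried. Over the 60 relations computed (10 members against 5 marker lists and the hexokinase gap), the adjusted permutation p was 0.213 for r and 0.0120 for rho, so the call depends on the measure. Without Sema5a, which is also among the 5 genes most like Slc17a6 on these arrays, r was 0.68 (adjusted permutation p = 0.312). Synpr had an r of 0.52 with the same list (permutation p = 0.111, adjusted 0.674; rho 0.55, permutation p = 0.0933). Of the other relations, Slc17a7 with the interneuron markers (r -0.67, permutation p = 0.0121; rho -0.68, permutation p = 0.0139; r -0.71 without 2 arrays), Sv2b with the CA1 markers (r 0.72, permutation p = 0.0168; rho 0.73, permutation p = 0.0111; r 0.70 without 2 arrays) and Rab3a with the interneuron markers (r 0.69, permutation p = 0.0208; rho 0.59, permutation p = 0.0624; r 0.62 without 2 arrays) had an unadjusted p under 0.05 for r and an adjusted p of 0.312. By rho alone, Synpr with the CA1 markers (rho -0.75, permutation p = 0.0091, adjusted 0.209; r -0.54, permutation p = 0.0824; r -0.53 without 2 arrays) and Sv2a with the CA1 markers (rho 0.62, permutation p = 0.0413, adjusted 0.496; r 0.40, permutation p = 0.201; r 0.39 without 2 arrays) were also under 0.05. The part of dentate tissue in the lower values of Slc17a6 and Synpr was not tested.

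**Figure D5:**
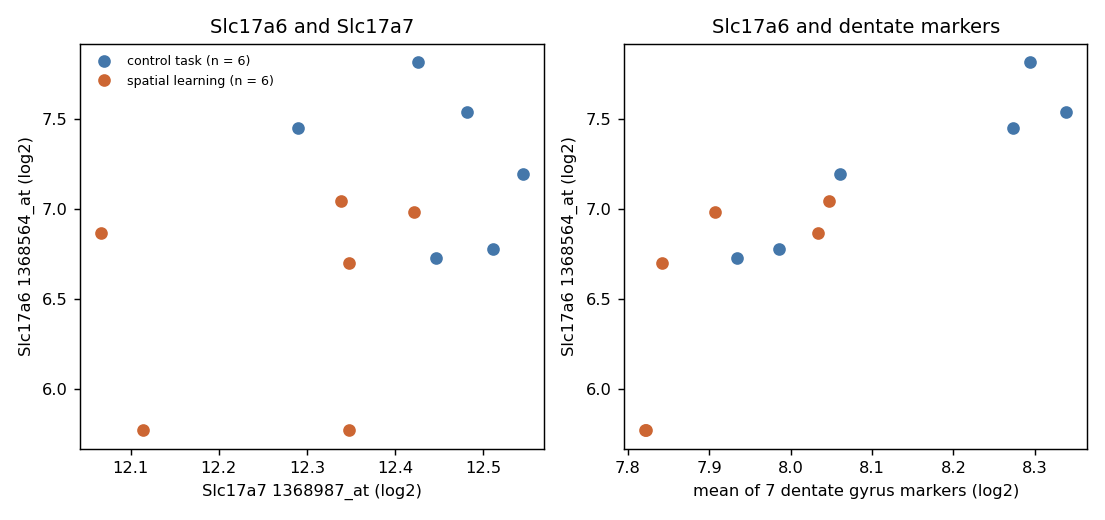
Left, log2 level of Slc17a6 against that of Slc17a7 on each array; right, Slc17a6 against the mean of 7 dentate gyrus markers (log2), 6 control task arrays in blue and 6 spatial learning arrays in orange. On the right arrays high in the markers are mostly high in Slc17a6 (r 0.79 with group means removed) and 2 orange points nearly coincide at the bottom left; on the left the r was 0.06.

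Markers of neighbouring regions, where VGLUT2 is abundant, were mostly too dim to test. Of 23 listed genes 18 had a probe set and 6 passed the level filter, 5 of them lower. Their summed linear signal ran from 776 to 897 on control task arrays and from 759 to 835 on spatial learning arrays, which overlap. Tcf7l2, a thalamic transcription factor, stood at 4.23 in both groups, and Ppp1r1b and Ntng1 differed by -0.13 and -0.06. The r of these 6 with Slc17a6 over 12 arrays ran from -0.03 for Ntng1 to 0.35 for Fn1. Their part in the Slc17a6 values was not tested.

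By Pearson r over the 12 arrays with group means removed, the genes most like Slc17a6 were Cdv3 at 0.89, Camk2n1 (an inhibitor of CaM kinase II) at 0.88, Sstr2 (a somatostatin receptor) at 0.85, Sema5a (a semaphorin) at 0.85 and Kcnk1 (a potassium channel) at 0.84. Their differences between groups ran from -0.23 for Sema5a to -0.14 for Cdv3. The 5 most like Slc17a7 were Adam1a at 0.91, Pde10a (a phosphodiesterase) at 0.81, Zmynd11 at 0.81, Nos1ap at 0.80 and Snhg11 at 0.80, with differences from -0.11 for Pde10a to 0.11 for Snhg11. They were picked as the highest of all tested probe sets, so their r describes these arrays only.

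Counted by gene the rest of the vesicle cycle was split between directions, while more of its probe sets were lower than higher. Of 76 further genes, most of them of vesicle fusion, recycling and acidification, 54 were tested. By the brightest probe set 27 were lower and 27 higher, with a median of 0.00. These counts include Synpo, at -0.04, and Trappc4, at 0.03, which are not genes of the synaptic vesicle cycle. Over all their 69 probe sets 41 were lower and 28 higher, with a median of -0.05, where 46.3% of all 9610 tested probe sets were lower. With limma 0 passed. An unadjusted limma p under 0.05 was reached by 11 lower and 4 higher, against 437 lower (4.55%) and 611 higher of the 9610. By the brightest probe set 9 of the 10 member genes were lower, with a median of -0.10. The difference between this list and the 10 members was not tested.

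Among those genes the lower ones with the smallest p were Bsn (Bassoon, of the active zone) at -0.59, Cplx2 (a complexin that clamps and promotes fusion) at -0.77, Nsf (the ATPase that takes SNARE complexes apart) at -0.08, Rab5a (an early endosome GTPase) at -0.22 and Syt4 (a synaptotagmin) at -0.19. The Bsn value came from a dim probe set with a mean of 5.69, and the brighter one, with a mean of 10.76, gave 0.02. Without the 3 arrays with choroid plexus or meningeal transcripts that dim Bsn probe set passed, at -0.82 (limma adjusted p = 0.0250). For Nsf the groups did not overlap on the brightest of its 3 probe sets, with 11.99 ± 0.02 on control task arrays and 11.90 ± 0.05 on spatial learning arrays; the others, at -0.04 and -0.08, overlapped. On the higher side were Scamp1 (a secretory carrier protein) at 0.15, Syngr3 (a synaptogyrin, itself a vesicle membrane protein) at 0.18, Bin1 (an amphiphysin) at 0.12, Syt17 at 0.23 and Syt7 at 0.12. The other probe set gave -0.10 for Scamp1, -0.05 for Syt4, -0.14 for Rab5a and 0.13 for Syt17, the last 2 being the brighter ones of their genes. The adjusted p of these 10 ran from 0.245 to 0.461 with limma.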

How the data were processed

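The deposited values are log2 probe set summaries of 12 RAE230A arrays, per the submitters' processing notes made by the authors with GCRMA (version not given in the sources used here); the log2 scale was read from their range, 0.134 to 14.8. GCRMA evens out the arrays' distributions and compresses dim signals. Symbols came from the supplied platform annotation (12783 probe sets with 1 symbol, 312 with several, 2771 with none here).

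Probe sets with a mean of at least 4 were fitted with limma 3.58.1 in R 4.3.3 (group only, eBayes with an intensity trend, Benjamini-Hochberg over 9610). Single values per array were compared by exact permutation over the 924 ways to choose 6 of 12. Correlations used 100000 permutations within groups after removing group means. Named genes were all members, the 5 further vesicle genes with the smallest p in each direction and the 5 most like each transporter. The members and lists were chosen with earlier results of these data known; the hexokinase covariate for the transporter ratio (residuals permuted), the tests between probe sets of a gene and against marker lists were added after the values were seen. The labels name no scan batch. Scripts were tested on simulated data. Sequences are RefSeq's, on GRCr8. Replicates are called biological in the titles; alternatives are in the closing section.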

Additional observations from a re-analysis of the deposited data

Results flagged for a closer look

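Among 34 groups of 6 values (17 probe sets in each group of rats), 3 held an array set apart from the rest by Dixon's test, where chance gives about 1 in 20. Control task replicate 4 was high in Syn2 1369482_a_at, at 9.85 against at most 9.71 in the other controls. Spatial learning replicate 1 was low in Snap91 1373865_at, at 11.55 against at least 11.71 in the others of its group. Control task replicate 4 was also low in the dim Sv2b probe set 1375142_at, at 2.68 against at least 2.75, a level too low to be tested.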

How the results depend on the processing

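In 21 other fits (level filters, eBayes settings, scalings, the replicate block, the hexokinase covariate, 3 arrays left out and each array left out), 0 member probe sets passed, and 12 of the 15 differences kept their direction in every fit. The exceptions were Slc17a7 1368986_at, Sv2b 1369628_at and Syn2 1370431_at. The hexokinase gap hardly overlaps between the groups, so its fit cannot tell RNA integrity from the task. With this gap as covariate, Slc17a7 1368986_at gave 0.015 and Sv2b 1369628_at 0.15. In the same fit Syn1 1390196_at gave -0.035, Sv2b 1369627_at -0.0031 and Rab3a -0.011. Without the 3 arrays with choroid plexus or meningeal transcripts Sv2b 1369628_at gave 0.21, and 5 probe sets over the whole array passed, none of them members and 1 of them for Bsn. With median centring Syn2 1370431_at gave -0.00096. Leaving out each array in turn, Syn2 1370431_at ran from -0.033 to 0.057, Sv2b 1369628_at from -0.055 to 0.082, Slc17a6 from -0.83 to -0.58 (smallest limma adjusted p = 0.267), Synpr 1368865_at from -0.72 to -0.51 (0.203), Slc17a7 1368986_at from -0.43 to -0.23, Sv2a from -0.23 to -0.07, Sv2b 1369627_at from -0.17 to -0.056, Rab3a from -0.095 to -0.0095 and Syp from -0.097 to -0.045, and the count over the whole array from 0 to 3, the 3 coming without control task replicate 6. Slc17a6 minus Slc17a7 ran from -0.66 to -0.39 under quantile normalization, the mean of probe sets, the block and arrays left out (exact permutation p 0.0671 to 0.281) and was -0.89 with the hexokinase covariate, a fit added after seeing the data (permutation p = 0.0634), and 0 member pairs passed under any. The correlation of Slc17a6 with dentate markers, examined after seeing the data, ran from 0.75 to 0.83 without each array and passed with Spearman only, at 0.83. Same-numbered arrays did not deviate together (correlations -0.17 to 0.08, 0 of 6 over 0.1). No pairing by number was detected in this way, which does not show that there was none. With the replicate block 0 probe sets passed, and the sign-flip test of Slc17a6 minus Slc17a7 gave -0.55 (exact permutation p = 0.281). With 6 arrays per group the median SE of a member's difference was 0.08.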
